A study of Mus musculus with 14 samples.

Results

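Glycinergic amacrine cells are inhibitory interneurons of the inner retina, and here they are the retinal nuclei that the authors' table labels Gly_AC. The label held 6474 of 77676 retinal nuclei. As background, amacrine cells receive input from bipolar cells and shape the signals that pass to ganglion cells. The glycinergic classes are mostly narrow-field cells that carry signals between layers of the inner plexiform layer; they take up glycine through the transporter encoded by Slc6a9. The AII amacrine cell, the best known of them, passes rod signals to cone bipolar cells and is coupled by gap junctions.

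The study followed mice that lost the TGF-beta receptor gene Tgfbr1 in vascular endothelial cells soon after birth. Single nuclei of whole retina were sequenced from 1 control library and 11 conditional knockout (CKO) libraries. The CKO mice were Cdh5CreER (also called VEcadCreER) with 1 floxed and 1 null Tgfbr1 allele (Tgfbr1CKO/-) and received 4-hydroxytamoxifen (4HT) between postnatal days 3 and 5. The control was labelled wild type and described as phenotypically wild type, and its own alleles and exposure to 4HT were not given. Elsewhere the paper says that such control retinas were typically Cdh5CreER with Tgfbr1CKO/+ or Tgfbr2CKO/+.

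The paper puts the age at postnatal day 14, whereas the series text speaks of young adults. Cdh5CreER recombines in endothelial cells, so the amacrine cells were not the cells meant to lose both copies of Tgfbr1. By the genotype given, the null allele was present in every cell of a CKO mouse. How many mice went into a library was not stated. The control and CKO replicates 1 to 3 formed batch 1, replicates 4 and 5 batch 2 and replicates 6 to 11 batch 3, and replicates 8 to 11 were made with version 5 of the kit in place of version 4. With 1 control library, a difference between genotypes and a difference between that library and any other cannot be told apart.

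The control held 873 of the glycinergic nuclei. CKO replicate 4 held 2 of them and was left out of every gene comparison, and the other 10 CKO libraries held between 219 and 1510, with a median of 395. A control nucleus had a median of 3335 unique molecular identifiers (UMIs, each 1 counted RNA molecule), against a lowest of 1983.5, a median of 4137.75 and a highest of 9173 across the 10 CKO libraries. The control thus lay inside the range of the CKO libraries, and the 4 libraries of kit version 5 were the deepest. No barcode of a glycinergic nucleus occurred in more than 1 library, against 10 of 77666 barcodes over all retinal nuclei.

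Sex composition differed between libraries. Xist, the RNA that silences an X chromosome in females, stood at 8129 CPM in the control (a gene's UMIs scaled to a fixed total of UMIs in the nuclei summed), and in the CKO libraries at a lowest of 0, a median of 0.827 and a highest of 8382. Uty, on the Y chromosome, stood at 1.98 in the control and at 0, 237 and 285 in the lowest, median and highest CKO library. The control therefore had the profile of female mice and most CKO libraries that of males. The part of sex in the results below is given only by a fit with the Xist level as a covariate. There the level was entered only as high or low for each library.

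The labelled cells carried the transporter that names them. Slc6a9 reached 199 CPM in glycinergic amacrine nuclei, and 46.8% of them had a UMI of it at a median depth of 3654.5 UMIs. In the other labelled types the share ran from 3.79% in rod bipolar nuclei, at a median depth of 3390 UMIs, to 15.7% in horizontal cell nuclei, at 8629, and in GABAergic amacrine nuclei it was 7.7% at 4707.5. By level those types ran from 10.5 CPM in rod bipolar nuclei to 45.4 in cones and 52.2 in rods.

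The other marker genes were shared with neighbouring types. Pax6, a transcription factor of amacrine, horizontal and Muller glial cells, stood at 443 CPM, against 601 in GABAergic amacrine nuclei and 687 in Muller glia. Tfap2a, a transcription factor of amacrine cells, stood at 57.8 against 208 in GABAergic amacrine nuclei. Tcf4 was higher in glycinergic nuclei, at 2366 against 362, and the GABA-synthesizing enzyme gene Gad1 was lower, at 8.51 against 215. Tfap2a thus did not set these nuclei apart from GABAergic ones, and Slc6a9 with a low Gad1 did.

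None of the 3 markers differed between genotypes by the edgeR quasi-likelihood test with Benjamini-Hochberg adjustment. Slc6a9 stood at 171 CPM in the control and at 144, 179 and 266 in the lowest, median and highest of 10 CKO libraries (log2 fold change -0.11, SE 0.17; higher in 7 of 10). Pax6 stood at 526 against 318, 442 and 525, and Tfap2a at 66.4 against 36.7, 55.6 and 66.3. For Pax6 and Tfap2a every one of the 10 libraries lay below the control, with log2 fold changes of -0.19 (adjusted p = 0.964) and -0.34 (adjusted p = 0.954).

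The share of glycinergic nuclei among all retinal nuclei was 7.58% in the control (95% exact binomial interval 7.11% to 8.08%). Across the 11 CKO libraries it was 1.92% at the lowest, 8.01% at the median and 10.4% at the highest, and 7 of 11 lay above the control. The control lay inside the CKO range (two-sided exact permutation test, p = 0.917), and with 1 library against 11 that test cannot go below 0.0833. Within batch 1 the 3 CKO libraries lay between 8.96% and 9.2%, all above the control (exact permutation p = 0.25, the smallest that 1 against 3 can give). The CKO mean minus the control was 0.158 percentage points, and 0.776 without replicates 4 and 5, of which replicate 4 held 104 retinal nuclei in all.

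Among amacrine nuclei, glycinergic plus GABAergic, the glycinergic share was 46.8% in the control (interval 44.5% to 49.1%). The CKO libraries gave 18.2%, 48.5% and 53.6% as lowest, median and highest, and the lowest came from replicate 4 with 2 of 11 amacrine nuclei. The groups overlapped, and 9 of 11 CKO libraries lay above the control (exact permutation p = 0.917). The authors' curation had removed clusters with multiple nuclei from replicates 4 and 5. Without these replicates 8 of 9 lay above the control, and the CKO mean minus the control turned from -0.396 to 2.52 percentage points (exact permutation p = 0.4). With 1 control these tests cannot go below 0.0833 and 0.1, so they say nothing on whether the shares differed.

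Across 13112 genes tested, 5 were higher in CKO and 0 were lower at an adjusted p under 0.05, which is 0.0381% of the genes. They were Adamts19, Ak5, Tpm1, Antxr2 and Csgalnact1. The fit was the edgeR quasi-likelihood test with Benjamini-Hochberg adjustment on UMIs summed per library, with batch and kit as covariates, so the control was compared with the CKO libraries of its own batch and was assumed to vary like the CKO libraries. At an unadjusted p under 0.05 there were 738 genes, and DESeq2 called 11 higher and 1 lower. The median log2 fold change of all genes tested was 0.02.

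Adamts19, which encodes a secreted metalloproteinase, had the smallest p. The control held 21 UMIs, or 5.94 CPM, and the 10 CKO libraries stood at a lowest of 85, a median of 112 and a highest of 165 CPM. The groups were far apart, with replicate 7 the lowest and replicate 10 the highest of the CKO libraries. The edgeR fit gave a log2 fold change of 3.90 (SE 0.31; adjusted p = 2.84e-06; higher in 10 of 10), and the gene also passed under each of the 20 other settings tried. Within batch 1 the CKO libraries stood at 88.4 to 94.4.

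Ak5 encodes an adenylate kinase of neurons and lies on chromosome 3 from 152161404 to 152374247 (GRCm39, GENCODE). It stood at 12.2 CPM in the control and at 74.8, 134 and 165 in the lowest, median and highest CKO library. Each CKO library was above the control, with replicate 1 the lowest. The edgeR log2 fold change was 3.09 (SE 0.41; adjusted p = 0.0044; higher in 10 of 10), and the gene passed under each of the 20 other settings.

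Tpm1, on chromosome 9 from 66929870 to 66956953, encodes an actin-binding tropomyosin. The control stood at 64.5 CPM and the CKO libraries at 147, 216 and 328. No CKO library reached down to the control. The edgeR log2 fold change was 1.46 (SE 0.22; adjusted p = 0.0154; higher in 10 of 10). The call was lost with kit as the only covariate (adjusted p = 0.0925) and with no covariates (adjusted p = 0.228), in a range of 3.61e-12 to 0.228 over 20 other settings.

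Csgalnact1, on chromosome 8 from 68809433 to 69188165, encodes an enzyme that starts chondroitin sulfate chains. The control held 26 UMIs, or 7.35 CPM, against 28.9, 49.6 and 67.6 in the lowest, median and highest CKO library. Each of the 10 libraries was above the control, and the lowest was replicate 2. The edgeR log2 fold change was 2.17 (SE 0.36; adjusted p = 0.0322; higher in 10 of 10). The call was lost when replicate 3 (adjusted p = 0.0579), 8 (0.0717), 9 (0.0697) or 10 (0.0572) was left out, with kit as the only covariate (0.076) and with no covariates (0.104), in a range of 1.39e-08 to 0.104 over 20 other settings. Without clusters that carried markers of other classes the log2 fold change was 2.85.

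Antxr2, on chromosome 5 from 98030642 to 98179263, encodes a receptor that binds collagen VI and takes up anthrax toxin. It stood at 19.5 CPM in the control and at 49.6, 55.7 and 72.8 in the CKO libraries. The CKO libraries lay close together and all above the control. The edgeR log2 fold change was 1.44 (SE 0.23; adjusted p = 0.0223; higher in 10 of 10). The call was lost without replicate 8 (adjusted p = 0.0516) or replicate 9 (0.0591) and without clusters that carried markers of other classes (0.154), in a range of 8.81e-06 to 0.154 over 20 other settings. Over the same settings the log2 fold change lay between 1.37 and 1.51.

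The number of genes called moved with single libraries. It was 18 without replicate 1 (11 higher and 7 lower), 9 without replicate 6 or 7 (8 higher and 1 lower each), and 3 without replicate 8 or 9. Within batch 1 alone, 8 genes were higher and 4 lower. With the Xist level as a further covariate 7 genes were called, Adamts19, Ak5, Tpm1, Antxr2 and Csgalnact1 among them.

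No gene passed the test in the lower direction. The 5 of smallest p there were Ror1, Spink13, Traip, Nell1 and Egfr, and each lay below the control in 10 of 10 CKO libraries. Ror1, a receptor for Wnt ligands, stood at 94.2 CPM against 44.9, 50.2 and 59.7 (edgeR log2 fold change -0.89, adjusted p = 0.0952). Spink13 stood at 409 against 135, 206 and 273 (log2 fold change -1.15, adjusted p = 0.108). Nell1, a secreted protein with EGF-like repeats, stood at 231 against 97.2, 129 and 174 (log2 fold change -0.97, adjusted p = 0.122).

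Egfr, the receptor for epidermal growth factor, stood at 58 CPM against 23.2, 31.5 and 52.4, and Traip, a ubiquitin ligase, at 275 against 92.8, 152 and 190. Their edgeR log2 fold changes were -1.02 (adjusted p = 0.161) and -0.70 (adjusted p = 0.108). Spink13 and Nell1 passed within batch 1, where the adjusted p was 0.0122 and 0.0132. Spink13 also passed without replicate 3 (0.0205), 6 (0.0409) or 7 (0.0381), and Traip without replicate 1 (0.0443). Nell1 also passed with DESeq2 (adjusted p = 0.0332). Ror1, Spink13, Traip, Nell1 and Egfr each passed with no filter on low counts. Over the 20 other settings the adjusted p ranged from 1.19e-11 to 0.552 for Spink13 and from 8.11e-07 to 0.331 for Nell1.

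Tgfbr1 itself stood at 59.4 CPM in the control and at 37.7, 51.2 and 58.3 in the CKO libraries. Each of the 10 libraries lay below the control, by a small margin for the highest. The edgeR log2 fold change was -0.35 (SE 0.19; adjusted p = 0.923), so no difference passed the test. The endothelial markers Cldn5 and Cdh5 had no UMI in the control's glycinergic nuclei and at most 0.549 and 1.16 CPM in a CKO library.

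**Figure D1:**
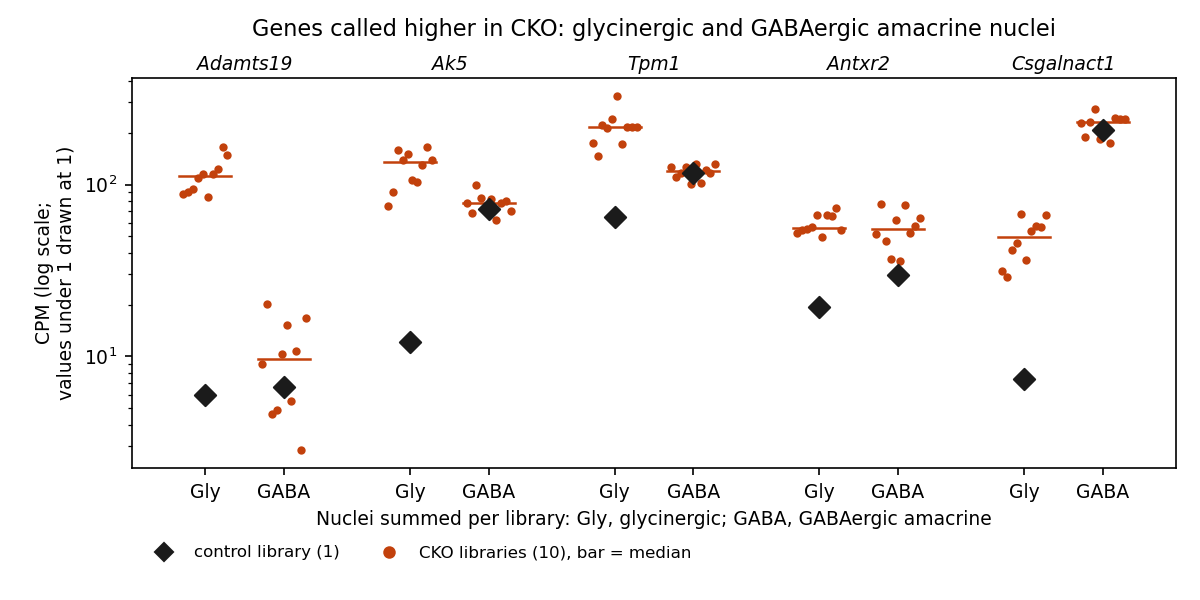
CPM (log axis) of the 5 genes called higher in CKO, in glycinergic and in GABAergic amacrine nuclei of the same libraries. Diamonds are the control library, points the 10 CKO libraries and bars their median. In glycinergic nuclei each CKO point lies above the control, as for Adamts19 (85 to 165 against 5.94). In GABAergic nuclei Adamts19, Ak5, Tpm1 and Csgalnact1 of the control lie among the CKO points, and Antxr2 lies below them.

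GABAergic amacrine nuclei of the same libraries served to ask whether the CKO difference was the same in both amacrine classes. Of 14462 genes tested for a difference between the classes, 7 passed (0.0484%) by the edgeR quasi-likelihood interaction test with Benjamini-Hochberg adjustment, with the control again assumed to vary like the CKO libraries and CKO replicate 4 left out. For Ak5, Tpm1, Dpp10, Nav2, Csgalnact1 and Grik4 the CKO difference was higher in glycinergic nuclei, and for Nell1 it was lower.

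Ak5 stood at 71.7 CPM in GABAergic nuclei of the control, inside the 62.3 to 99.4 of the CKO libraries. Its difference of log2 fold changes between the classes was 2.86 (SE 0.31; adjusted p = 4.45e-05). Tpm1 stood at 116 in GABAergic control nuclei, inside 101 to 132, with a difference of 1.44 (SE 0.18; adjusted p = 0.00037). In both genes the GABAergic groups overlapped and the glycinergic ones did not. Csgalnact1 was more abundant in GABAergic nuclei, at 207 in the control and 174 to 273 in CKO, and the difference was 2.09 (SE 0.36; adjusted p = 0.0193).

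Dpp10, which encodes an auxiliary subunit of Kv4 potassium channels, stood in glycinergic nuclei at 54.3 CPM in the control and at 213, 391 and 744 in the CKO libraries. In GABAergic nuclei it stood at 366 and at 324, 387 and 467. The glycinergic groups were apart and the GABAergic ones overlapped. The difference between the classes was 2.48 (SE 0.37; adjusted p = 0.00457), whereas the CKO difference in glycinergic nuclei alone did not pass (log2 fold change 2.83, adjusted p = 0.108). It did pass within batch 1 (adjusted p = 0.0415), without replicate 1 (0.0163), 2 (0.0378) or 3 (0.00441), with the Xist level as a covariate (0.00281) and with no filter on low counts, in a range of 8.11e-47 to 0.211 over 20 other settings. The log2 fold change fell to 2.02 without replicate 3 and to 2.19 with the Xist level, and rose to 3.86 without clusters that carried markers of other classes.

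Nav2, a protein of the growing axon, stood at 23.8 CPM in glycinergic control nuclei and at 45.3, 73.3 and 106 in CKO, against 54.1 and 39.5, 46.4 and 61.6 in GABAergic nuclei. Grik4, a kainate receptor subunit, stood at 25.4 against 52.3, 74.4 and 97.2, and in GABAergic nuclei at 95.7 against 65.4, 87.4 and 117. For both genes the glycinergic groups were apart and the GABAergic ones overlapped. The differences were 1.52 (adjusted p = 0.0104) and 1.31 (adjusted p = 0.038), and for Nell1 -0.96 (adjusted p = 0.0391).

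Some of these calls were lost in other settings. Without replicate 1, 2 or 3 the count was 4. Csgalnact1 was lost without replicate 2 (adjusted p = 0.0839) or 3 (0.0974), and Nav2 without replicate 1 (0.0604) or 3 (0.0663). Grik4 was lost without replicate 1 (0.0604), 2 (0.0943), 3 (0.168), 9 (0.0517) or 10 (0.0528) and without clusters that carried markers of other classes (0.0543), and Nell1 without replicate 1 (0.0604), 2 (0.089), 3 (0.168), 6 (0.0634) or 7 (0.0614). Ak5, Tpm1 and Dpp10 passed under each of the 14 other settings. Without clusters that carried markers of other classes the difference was 3.44 for Dpp10 and 2.77 for Csgalnact1.

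For Adamts19 the difference between the classes was 3.24 (SE 0.75) and did not pass (adjusted p = 0.262). Its level in GABAergic nuclei was 6.67 CPM in the control and 2.85, 9.67 and 20.3 in the CKO libraries. It passed within batch 1 (adjusted p = 0.045), in a range of 1.25e-09 to 0.487 over 14 other settings. Antxr2 did not differ between the classes by the test (difference 0.53, adjusted p = 1), and in GABAergic nuclei it stood at 29.7 in the control and 35.9 to 77.1 in CKO.

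Glycinergic nuclei were clustered to describe their diversity. At the resolution chosen for the comparison of shares there were 22 clusters, and 4 of them had a control share outside the range of the 10 CKO libraries with at least 50 nuclei. No p could go under 0.0909 in that design, and the smallest adjusted p was 0.667. A cluster led by Adamts19, Ak5 and Trabd2b held 1.03% of control nuclei and 6.7% to 12.9% of CKO nuclei. Another, led by Ror1 and Luzp2, held 12.9% of control nuclei and 0.415% to 3.12% of CKO nuclei. Both carried Esr1 among their leading genes, and since the genes that define them differed between genotypes, these shares cannot be told apart from changed expression within 1 kind of cell.

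The nuclei were therefore clustered again without the 738 genes of unadjusted p under 0.05, a step added after the first clusters had been seen. At resolution 0.5 there were 16 clusters, and 1 of them, the largest with 902 nuclei, took in 571 of 572 nuclei of the cluster led by Adamts19 and 195 of 197 of the one led by Ror1. It was led by Esr1, Igf1 and Luzp2 and is called the Esr1 cluster here. It held 14.8% of control nuclei (exact binomial interval 12.5% to 17.3%). In the 10 CKO libraries it held 11%, 13.7% and 19.2% at the lowest, median and highest, and the control lay inside that range. Similar shares were favoured by the choice itself. Differing genes were left out, and the cluster was picked for taking in a control-rich and a CKO-rich cluster. These shares therefore cannot tell whether this kind of cell changed in number.

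The Esr1 cluster, the resolution of 0.5 and the genes left out were all chosen after values had been seen. Its share and what follows on it are therefore a description with no test. At resolution 1 the same nuclei fell mainly into a pair of clusters that held 49.6% and 50.4% of its control nuclei and 56.5% and 42.8% of its CKO nuclei. At resolution 2 a cluster of 208 of its nuclei held no control nucleus, so at that resolution a split by genotype was present even without the 738 genes.

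The clusters made without those genes matched known subtypes only in part. The second largest, with 661 nuclei, had raised Gjd2, Prox1, Dab1 and Nfia, markers of AII amacrine cells. Gjd2, the gap junction gene, stood at 201 CPM there against 27.7 in the other nuclei. The other AII markers of the list, Nfib, Nfix and Calb2, were not raised in it, whereas the horizontal cell markers Onecut1 and Calb1 were. A cluster of 329 nuclei led by the vesicular glutamate transporter gene Slc17a8 held 1493 CPM of it against 1.69 elsewhere. In the Esr1 cluster Gjd2 stood at 9.54 and Slc17a8 at 1.85. Nfib, Nfix and Calb2, 3 of the AII markers, were raised in it, which met the rule for a subtype name, but with Gjd2 below its level in the other nuclei the cluster was left unnamed, a decision made after these values were seen.

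Other clusters carried markers of other retinal classes. One of 617 nuclei had 5 raised cone bipolar and 3 raised rod bipolar markers, and one of 359 nuclei had 5 raised rod and 5 raised cone markers. In the clustering with all genes, clusters with more markers of another class than of their own among the leading genes made up 16.8% of control nuclei and 16% to 21.5% of nuclei in the 10 CKO libraries. Without them 6 genes were called, with Antxr2 no longer among them.

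Tfap2a varied strongly among the clusters. It stood at 264 CPM in the cluster led by Slc17a8 and 80.1 in the cluster of 661 nuclei. In the Esr1 cluster it stood at 13.8, and in a cluster led by Vwa5b1 and Cntn6 at 0.962. Slc6a9 stood at 113, 491, 336 and 85.6 in the same clusters. The transporter was thus present in each of the 4, whereas Tfap2a was near 0 in the last.

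In the Esr1 cluster the control had 129 nuclei and 476907 UMIs, and the 10 CKO libraries had 32 to 193 nuclei. Adamts19 stood at 25.2 CPM in the control and at 535, 753 and 926 in the lowest, median and highest CKO library. In the other glycinergic nuclei it stood at 2.94 against 18.6, 30.6 and 49.7. Ak5 stood at 23.1 against 564, 832 and 918 in the cluster, and at 10.5 against 23.4, 34.3 and 43.1 in the others. The groups were apart in both sets of nuclei, and the levels were far higher in the cluster.

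Tpm1 stood at 60.8 CPM in the Esr1 cluster of the control and at 620, 1050 and 1779 in the CKO libraries, against 65 and 78.8, 93.5 and 150 in the other nuclei. Dpp10 stood at 16.8 against 1053, 2385 and 4284, and in the other nuclei at 60.1 against 105, 135 and 183. Csgalnact1 had 2 UMIs in the cluster's control nuclei, or 4.19 CPM, against 163, 245 and 360. By level, all 10 CKO libraries were above the control for each of these genes in both sets of nuclei. At an equal depth of 1500 UMIs the groups overlapped in the other nuclei for Tpm1, with a UMI in 8.82% of control nuclei against a CKO lowest of 7.37%, and for Csgalnact1, in 0.598% against 0.382%.

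Nav2 had no UMI among the 129 control nuclei of the cluster, and the CKO libraries stood at 188, 294 and 400 CPM, at least 46.8-fold higher at the median against a floor of 3 counts in the control. Grik4 had 1 UMI in the control, or 2.1 CPM, against 201, 314 and 431. The muscarinic acetylcholine receptor gene Chrm3 stood at 321 against 1310, 1672 and 1875, and Chrm2 at 44 against 257, 628 and 1012. In the other nuclei the Chrm3 control value of 437 lay among the CKO values of 413 to 546.

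Genes with the opposite direction were found in the same cluster. Nell1 stood at 656 CPM in the control and at 23.3, 61.5 and 164 in the CKO libraries. Vegfc, a growth factor of lymphatic and blood vessels, stood at 361 against 25.1, 39.9 and 76.7. Egfr stood at 111 against 0, 17 and 52.3, and Ror1 at 524 against 153, 240 and 389. All 10 CKO libraries were below the control for these 4 genes, whereas in the other nuclei the control value of Nell1, 165, lay among CKO values of 101 to 198.

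The 3 genes that led the cluster were present in both genotypes. Esr1, the estrogen receptor gene, stood at 893 CPM in the control and at 664, 1074 and 1393 in the CKO libraries. Luzp2 stood at 1344 against 818, 1157 and 1354, and Igf1, an insulin-like growth factor, at 361 against 393, 612 and 835. The groups overlapped for Esr1 and Luzp2, whereas all 10 CKO libraries lay above the control for Igf1, also at an equal depth of 1500 UMIs (32.2% of control nuclei with a UMI against 37.5%, 54.5% and 67.1%). Slc6a9 overlapped, at 296 against 228, 320 and 427. Antxr2 showed no such concentration: it had 1 UMI in the cluster's control nuclei against 13.3 to 87.7 CPM in CKO, and 22.2 against 50.4, 60.2 and 75.6 in the other nuclei.

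**Figure D2:**
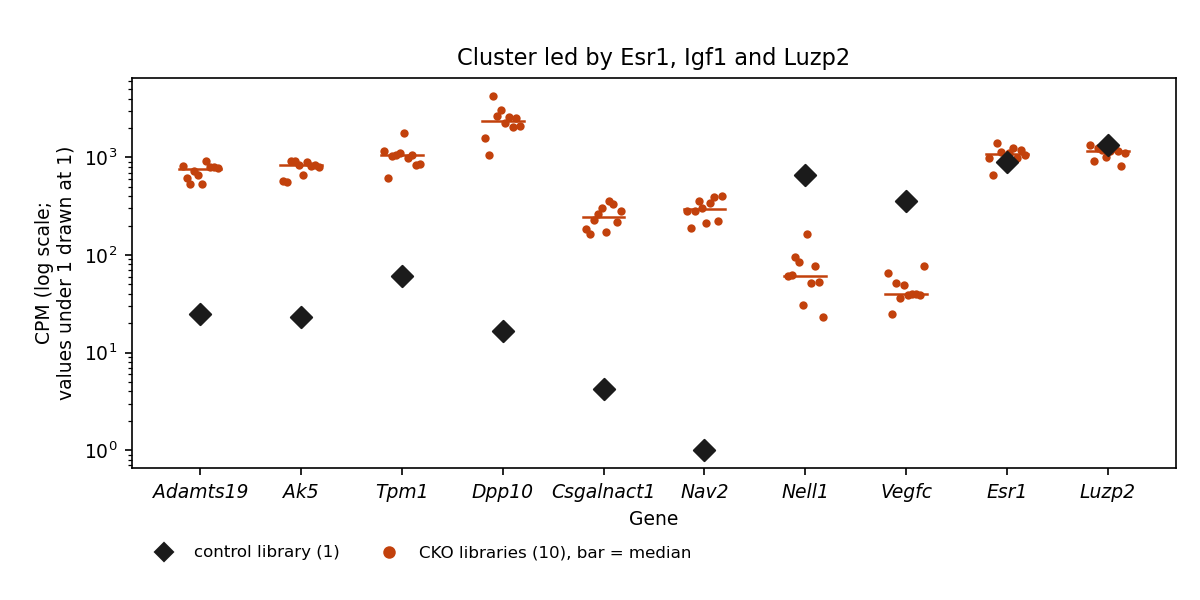
CPM (log axis, values under 1 drawn at 1) of 10 genes in the nuclei of the Esr1 cluster, summed per library. The diamond is the control library, points are the 10 CKO libraries and bars their median; Adamts19, Ak5, Tpm1, Dpp10, Csgalnact1 and Nav2 of the control lie below, Nell1 (656 against 23.3 to 164) and Vegfc above, and Esr1 and Luzp2 among the CKO points.

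Counted by nuclei at an equal depth of 1500 UMIs, Adamts19 was found in 4 of 115 control nuclei of the cluster, or 3.48% (exact binomial interval 0.956% to 8.67%). In the 10 CKO libraries the share was 47.3%, 61.4% and 75% at the lowest, median and highest. In the other glycinergic nuclei it was 0.897% in the control and 1.38%, 2.17% and 3.05% in CKO. Nell1 was found in 60.9% of the control's nuclei and in 2.7%, 7.17% and 20% of those of the CKO libraries. The groups were apart for both genes in the cluster at equal depth. Detection follows the level, so more nuclei with the RNA and more RNA per nucleus cannot be told apart from these shares.

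Genes were then counted, cluster by cluster, whose CKO median lay at least 4-fold from the control with all CKO libraries on one side. The rule was set after values had been seen and was tightened 2 times after its output had been seen, so all 3 versions are given. In the first version, clusters needed at least 10 control nuclei. The Esr1 cluster then had 45 of 3410 genes (1.32%; 34 higher and 11 lower), and the 15 other clusters had 526 of 50455 gene and cluster pairs (1.04%). Of those 526, 422 came from the 4 clusters with under 30 control nuclei, and 3 of these had a higher share than the Esr1 cluster, up to 5.2%. Those 3 clusters were compared with only 3 CKO libraries each.

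In the second version clusters needed at least 30 control nuclei, which left 11 other clusters. The Esr1 cluster kept its 45 of 3410 genes (1.32%) and the others had 104 of 36970 pairs (0.281%). In the third version the median of the batch 1 CKO libraries also had to lie 4-fold from the control. The Esr1 cluster then had 37 of 3410 genes (1.09%; 31 higher and 6 lower) and the others 52 of 36970 (0.141%), with 13 as the highest count of a single other cluster. The contrast between the Esr1 cluster and the others thus depended on the version, from nearly equal shares in the first to well separated shares in the third. The Esr1 cluster also had the most control nuclei, and the part of cluster size in these counts was not tested.

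**Figure D3:**
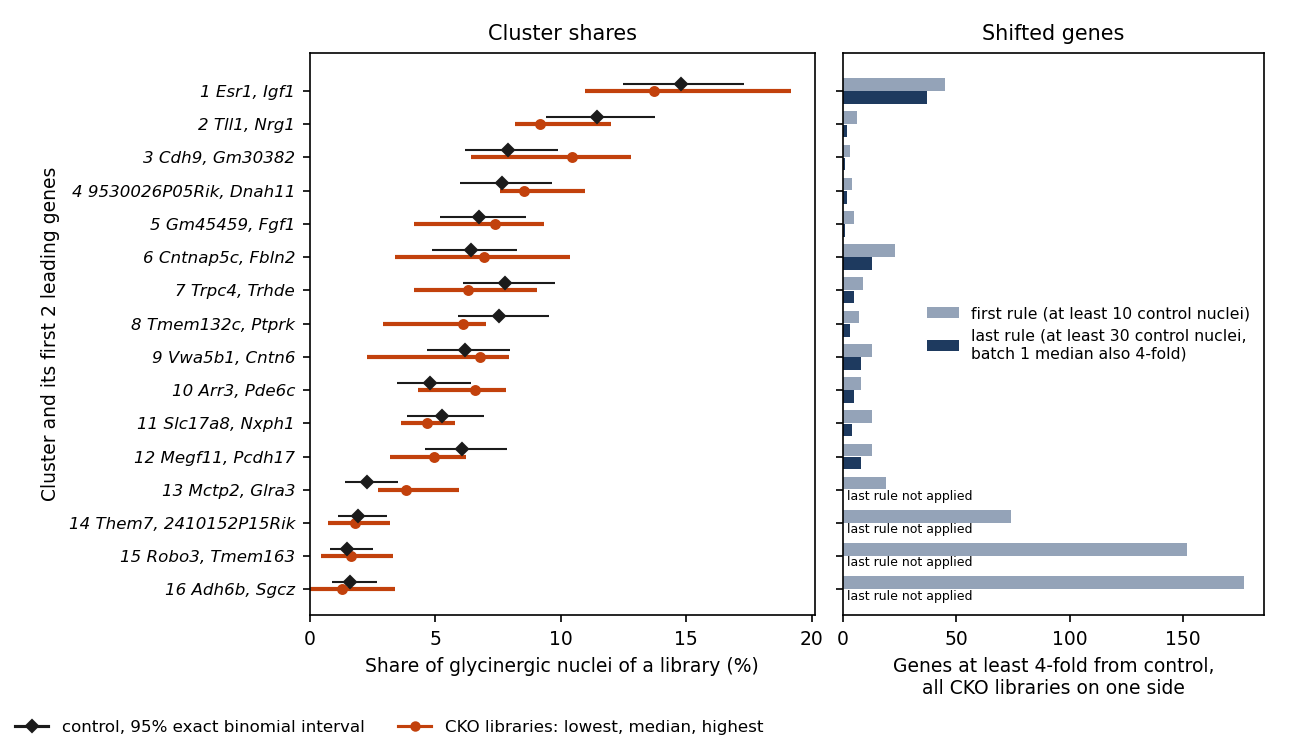
Left, share of each library's glycinergic nuclei (percent) in 16 clusters made without the 738 genes; diamonds with lines are the control with its 95% exact binomial interval, and points with lines the CKO median, lowest and highest. Right, number of genes at least 4-fold from the control by the first and by the third version of the rule; the Esr1 cluster had 45 and 37, and the small clusters 14, 15 and 16 had 74, 152 and 177 by the first version.

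Gene groups of synaptic function were described by lists. In none of the 33 lists did a member pass the edgeR test in glycinergic nuclei. DESeq2 called 1 member, Grik4, which edgeR also called without replicate 6 or 7. Within batch 1 edgeR called Kcnb2, without replicate 1 Cplx3, and with no filter on low counts 16 members. The counts of higher and lower members given for each list are at an unadjusted p under 0.05, which 5.63% of all genes tested met. Of 11 genes of glycinergic transmission tested, 0 were higher and 1 lower at an unadjusted p under 0.05 (median log2 fold change -0.05, against 0.02 for all genes tested). The list summed to 2030 CPM in the control and to 1836, 2066 and 2295 in the CKO libraries, so the groups overlapped. Its most abundant gene was Gphn, the scaffold of glycine and GABA receptors, at 1045 in the control and 953 to 1201 in CKO.

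Receptor lists for other transmitters lay on different sides of the control. The 24 glutamate receptor genes summed to 14054 CPM in the control and to 11691, 12859 and 14044 in the CKO libraries, below it in 10 of 10; 3 were higher and 1 lower at unadjusted p under 0.05. The 20 tested genes of GABA synthesis and reception summed to 3440 against 2942, 3125 and 3539, with 1 higher and 2 lower. Receptors for acetylcholine, dopamine and other modulators (15 tested; 1 higher, 1 lower) summed to 838 against 878, 1144 and 1298, above the control in 10 of 10, and Chrm3 made up 421 and 502 to 712 of that.

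Sodium, potassium and calcium channel genes (31 tested; 1 higher, 4 lower) summed to 12857 CPM in the control against 11036, 11666 and 12089, below it in 10 of 10. Kcnma1, a calcium-activated potassium channel, was the most abundant, at 2302 against 1441 to 2063. The 27 genes of vesicle release (0 higher, 2 lower) summed to 10959 against 9884, 10548 and 11708. The 30 adhesion and synapse specificity genes (1 higher, 2 lower) summed to 37806 against 27599, 34920 and 38856, and 6 tested gap junction genes (1 higher, 0 lower) to 821 against 742, 865 and 1013. Only the channels were apart from the control among these 4 lists, by a narrow margin.

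Genes of amacrine identity and of signals to vessels and axons follow. The 28 tested amacrine transcription factors (3 higher, 2 lower at unadjusted p under 0.05; median log2 fold change -0.24) summed to 7445 CPM against 6385, 6943 and 7784, and the groups overlapped. The 14 tested subtype markers (0 higher, 2 lower; median -0.22) summed to 5489 against 4044, 4639 and 5429, below the control in 10 of 10, with Dab1 at 4099 and 2673 to 3918 the most abundant. Angiogenic and axon guidance ligands (25 tested; 2 higher, 2 lower) summed to 11666 against 8156, 9860 and 11381, below in 10 of 10, with Nrg1 at 5484 and 2805 to 5204.

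Genes of the response to low oxygen leaned the other way. Of 30 tested, 8 were higher and 0 lower at an unadjusted p under 0.05, and 0 passed the adjusted test, where 5.63% of all genes tested had such a p in either direction; the median log2 fold change was 0.37 against 0.02 for all genes. The list summed to 2010 CPM in the control and to 2063, 2263 and 2489 in the CKO libraries, above it in 10 of 10. Hif1a, the most abundant member and an oxygen-regulated transcription factor, stood at 576 against 402, 490 and 585. It was therefore other members, such as the glycolytic gene Gpi1 (137 against 146, 179 and 227), that lay above the control.

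Interferon response and antigen presentation genes were scarce. Of 7 tested, 1 was higher and 0 lower at unadjusted p under 0.05 (median log2 fold change 0.36), and the list summed to 59.9 CPM against 74.2, 90.6 and 98 in the CKO libraries, above the control in 10 of 10. Stress, injury and cell death genes (22 tested; 3 higher, 1 lower; median 0.21) summed to 450 against 396, 590 and 762, above in 9 of 10.

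The remaining pathway lists overlapped with the control. TGF-beta and BMP signalling genes (26 tested; 2 higher, 1 lower) summed to 1395 CPM against 1376, 1527 and 1854. Immediate early genes (15 tested; 1 higher, 1 lower) summed to 212 against 153, 235 and 276. Nuclear genes of oxidative phosphorylation (22 tested; 1 higher, 0 lower) summed to 866 against 613, 854 and 1051, and mitochondrially encoded genes (8 tested; 0 at unadjusted p under 0.05) to 69.3 against 12.8, 57 and 70.6.

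Markers of other cell types were summed in the glycinergic nuclei. Foreign RNA and RNA of the glycinergic cells themselves cannot be told apart in these sums. Rod markers summed to 3898 CPM in the control and to 2972, 3829 and 4606 in the CKO libraries. Cone markers summed to 118 against 95.5, 185 and 249, above the control in 9 of 10. GABAergic amacrine markers summed to 238 against 289, 318 and 356, above it in 10 of 10, with Meis2 at 150 and 179 to 234. Apart from that last list the groups overlapped, and the part of these markers in the genes called was not tested beyond the fit without mixed clusters.

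Rod bipolar markers summed to 1281 against 847, 1065 and 1393 CPM, and cone bipolar markers to 546 against 321, 645 and 805. Muller glia markers summed to 192 against 89.3, 197 and 237, and horizontal cell markers to 117 against 68.7, 96.7 and 114, below the control in 10 of 10. Ganglion cell markers stood at 18.7 against 7.69, 25.8 and 54.2, and starburst amacrine markers at 7.63 against 1.65, 8.39 and 16.2. These 6 lists were small beside the rod markers, apart from the bipolar ones. Single genes made up much of some sums in the control: Prkca 1093 of the rod bipolar, Grik1 447 of the cone bipolar and Calb1 62.2 of the horizontal cell sum.

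Endothelial markers summed to 9.9 CPM against 6.77, 15.8 and 26.9, and all of the control's sum was Pecam1. Microglia and leukocyte markers summed to 12.7 against 5.26, 10.5 and 15.8. Retinal pigment epithelium markers summed to 12.7 against 4.94, 9.67 and 28.5, astrocyte markers to 0.848 against 0.579, 4.26 and 8.21, and pericyte markers to 0.283 against 0, 0.681 and 3.55. These lists were low in both genotypes.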

How the data were processed

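The deposited matrix holds counts: UMIs per gene and nucleus that the authors made with PIPseeker and cleaned with CellBender and SOLO. The authors removed by hand mixed nuclei and clusters with multiple nuclei from CKO replicates 4 and 5, and labelled the cell types. The labels name genome build mm10 and the methods GRCm39; coordinates here are those of GENCODE for GRCm39. The table held 28316 genes, and 24645 with a UMI both in batches 1 and 2 and in batch 3 were used; 1306 genes lacked UMIs in batch 3 alone and 1848 in batches 1 and 2 alone, and the cause was not tested.

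UMIs of Gly_AC nuclei were summed per library for libraries with at least 10 of them, 3.54e+06 UMIs in the control and 1.52e+06 to 7.24e+06 in 10 CKO libraries. Genes were filtered with filterByExpr, scaled with TMM and tested two-sided with edgeR 4.0.16 (R 4.3.3); DESeq2 1.42.0 was an alternative. Levels (CPM) are UMIs scaled by the total of the nuclei summed, and compare libraries, not genes of different length. Shares were compared by exact permutation over libraries. Nuclei were clustered with scanpy 1.11.5 (2000 variable genes, 20 principal components, 15 neighbours, Leiden). A subtype's name needed 3 markers raised at least 2-fold. Intervals and floors cover counting error only. The pipeline was tested on simulated data.

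Named genes were the 12 of smallest p in each direction among those that passed; where fewer than 5 passed, the 5 of smallest p; the markers; the most abundant members of each of 33 lists; and for the difference between classes the 5 of smallest p in each direction. Grik4, Chrm2, Chrm3, Vegfc, Esr1, Igf1, Luzp2, Trabd2b, Kcnb2 and Cplx3 were added after their values were seen. Members and lists were chosen with earlier results of these data known. The authors' integrated coordinates and 1 column of their metadata table were not used.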

Additional observations from a re-analysis of the deposited data

Results flagged for a closer look

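The CKO difference was not the same in glycinergic and GABAergic amacrine nuclei for 7 genes, by the edgeR interaction test with Benjamini-Hochberg adjustment over 14462 genes. The log2 fold change in glycinergic nuclei minus that in GABAergic nuclei was 2.86 for Ak5, 2.48 for Dpp10, 2.09 for Csgalnact1, 1.52 for Nav2, 1.44 for Tpm1 and 1.31 for Grik4. For Nell1 it was -0.96.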

How the results depend on the processing

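No paired analysis was possible because no CKO library had a matched control. The count of genes that differed between genotypes, 5, was 3 with kit as the only covariate, 3 with no covariates, 12 within batch 1, 12 with DESeq2 and 86 with no filter on low counts (more genes tested), and 3 to 18 when 1 CKO replicate was left out. The count for the difference between classes, 7, was 11 within batch 1, 34 with no filter and 4 to 10 when 1 replicate was left out. In the other settings both counts stayed within 1.5 times. The CKO mean minus the control of the share of retinal nuclei, 0.158 percentage points, turned to -1.8 over nuclei other than rods and -1.18 in nuclei of at least 1000 UMIs, and was 0.776 without replicates 4 and 5, 1.03 with UMIs of Slc6a9 and Pax6 in place of the label and 1.54 within batch 1. That of amacrine nuclei, -0.396, turned to 2.52 without replicates 4 and 5 and 1.46 within batch 1, and was -1.75 in nuclei of at least 1000 UMIs. The cause was not tested. The 4 clusters with a control share outside the CKO range became 2 at resolution 0.5, 7 at resolution 2 and 2 when clustered at 0.5 without differing genes. Pairs shifted 4-fold in clusters other than the Esr1 cluster, 526, became 104 with at least 30 control nuclei and 52 with the batch 1 median added, both rules set after the earlier output was seen. In the gene fits a minimum of 50 nuclei kept the same libraries, and leaving out replicates 4 and 5 was the same as leaving out 5, so neither is counted as a setting. Of 438 values of named genes under other settings, 389 kept their side of the threshold, 26 lost and 23 gained a call, and 0 reversed a call. Fits without mixed clusters, with the Xist level, within batch 1 for shares and without differing genes for clusters were added after the data were seen. The results of 1 other choice of nuclei are not given. The single control library limits every comparison of genotypes.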
